A study of Mus musculus with 4 samples.

Results

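Pre-T-cell receptor alpha (Ptcra) and 9 genes of V(D)J recombination were followed in T29, a mouse thymic lymphoma cell line described in the series' design as Ikaros-deficient. The genes were taken by name from the array's probe annotation: Ptcra, Rag1, Rag2, Dntt, Lig4, Xrcc4, Xrcc5, Xrcc6, Prkdc and Dclre1c. Of these 10, 9 had at least 1 probe set naming that gene alone, with 13 probe sets in all, out of 18193 genes and 34945 such probe sets on the array. No probe set is listed for Dclre1c, so it has no value here. The 4 samples were 2 labelled ethanol and 2 labelled 4OHT (a tamoxifen metabolite that binds oestrogen receptor fusions, at 100 nM), each kept for 24 h. All 4 carried the retroviral construct MigR1-MLER, and the series' design text speaks of dominant-negative Mastermind whose expression can be induced. Notch relies on Mastermind as a co-activator at its target genes. Ethanol-treated cells therefore carry the construct too, no sample without it was analysed here, and an effect of 4OHT itself cannot be told apart from that of the construct. T29 is 1 tumour line, and whether the replicates were separate cultures is not stated. The p-values below therefore reflect the spread of these 4 samples alone, and that spread may be technical.

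Ptcra encodes the invariant chain that pairs with a newly made T-cell receptor beta chain to form the pre-TCR, the checkpoint receptor of immature thymocytes, and it is an established Notch target. The receptor chains are assembled by V(D)J recombination. RAG1 and RAG2 together cut the DNA beside the gene segments, the Ku proteins bind the broken ends and recruit DNA-PKcs, Artemis opens the hairpins, terminal transferase adds bases, and XRCC4 with DNA ligase IV seals the joint. RAG and terminal transferase are made in developing lymphocytes, whereas the end-joining proteins act in most cells. Once the alpha chain locus has been rearranged, the alpha chain replaces the product of Ptcra.

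The promoter windows of Ptcra, the member with the strongest response, and of the 2 recombinase genes are shown to compare the DNA next to their start sites. They are RefSeq's windows on assembly GRCm38.p6, read along each gene's strand and shortened to the 250 bases before the annotated start. The Ptcra window lies at chr17:46763713-46763962 on the minus strand, that of Rag1 at chr2:101649533-101649782 on the minus strand and that of Rag2 at chr2:101624462-101624711 on the plus strand. Capitals mark TGGGAA (the core of both RBPJ and Ikaros binding sites), CAGCTG (an E box, bound by E proteins) and TGTGGT (the core of RUNX sites).
Ptcra: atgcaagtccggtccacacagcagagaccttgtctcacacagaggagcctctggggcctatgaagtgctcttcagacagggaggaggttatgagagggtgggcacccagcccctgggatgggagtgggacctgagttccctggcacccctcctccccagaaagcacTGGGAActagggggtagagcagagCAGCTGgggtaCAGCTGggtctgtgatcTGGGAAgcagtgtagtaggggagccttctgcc
Rag1: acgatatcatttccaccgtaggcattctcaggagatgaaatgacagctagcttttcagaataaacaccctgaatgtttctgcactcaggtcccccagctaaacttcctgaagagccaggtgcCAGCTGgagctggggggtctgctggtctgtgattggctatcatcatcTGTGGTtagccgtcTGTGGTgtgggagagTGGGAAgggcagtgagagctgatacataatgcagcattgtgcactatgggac
Rag2: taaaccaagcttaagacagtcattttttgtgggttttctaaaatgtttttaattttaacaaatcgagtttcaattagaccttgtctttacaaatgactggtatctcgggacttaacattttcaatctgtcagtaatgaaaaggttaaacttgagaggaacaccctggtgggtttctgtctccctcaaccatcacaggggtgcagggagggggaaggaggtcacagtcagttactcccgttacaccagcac
Both strands were searched, and no marked match overlapped one of another motif. The Ptcra window held 2 copies of TGGGAA, beginning 84 and 32 bases before the start, and between them 2 copies of CAGCTG, beginning 60 and 49 bases before it. Of 32851 promoter windows in the table, 21.6% held TGGGAA at least once and 2.77% at least 2 times, and for CAGCTG the shares were 13.0% and 1.26%. Rag1 held 1 TGGGAA at 52 bases, 1 CAGCTG at 128 bases and 2 copies of TGTGGT at 81 and 67 bases. TGTGGT was found in 14.0% of windows, and 2 or more copies in 1.27%. The TGGGAA of Rag1 was part of GTGGGAA, the longer RBPJ form that contains it, which 5.42% of windows held and the Ptcra window did not. No match of the 4 motifs was found in the Rag2 window, nor in those of Dntt, Xrcc4, Xrcc5 and Xrcc6, which are not printed. The Dclre1c window, not printed either, also held 2 copies of CAGCTG. Of the Lig4 windows, that at chr8:9976312-9976561 held 1 TGGGAA, inside a GTGGGAA, and 1 CAGCTG. The Lig4 window at chr8:9977681-9977930 held 1 CAGCTG. These matches describe letters only. The enhancer of Ptcra known to carry RBPJ sites lies further upstream, outside the window.

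Of the 9 genes, 1 fell with 4OHT, none rose, and 8 did not pass the test. The genes were compared with limma over 11581 tested genes, at a Benjamini-Hochberg adjusted p under 0.05, a rule that called 7.47% of all tested genes (3.57% lower, 3.90% higher). The members' median log2 change was -0.053, against -0.012 over all tested genes, and their changes ran from -2.23 to 0.38. Without the adjustment, 6 of the 9 had a p under 0.05 (2 higher and 4 lower), where 25.5% of all tested genes did (12.3% higher and 13.2% lower). The 2 groups of arrays did not overlap for 6 of the 9 genes (66.7%), 2 higher and 4 lower with 4OHT, and for 56.9% of tested genes, 26.7% higher and 30.2% lower. With 2 arrays a group an exact permutation test cannot go below a p of 0.333, so the calls rest on limma's pooled spread.

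**Figure D1:**
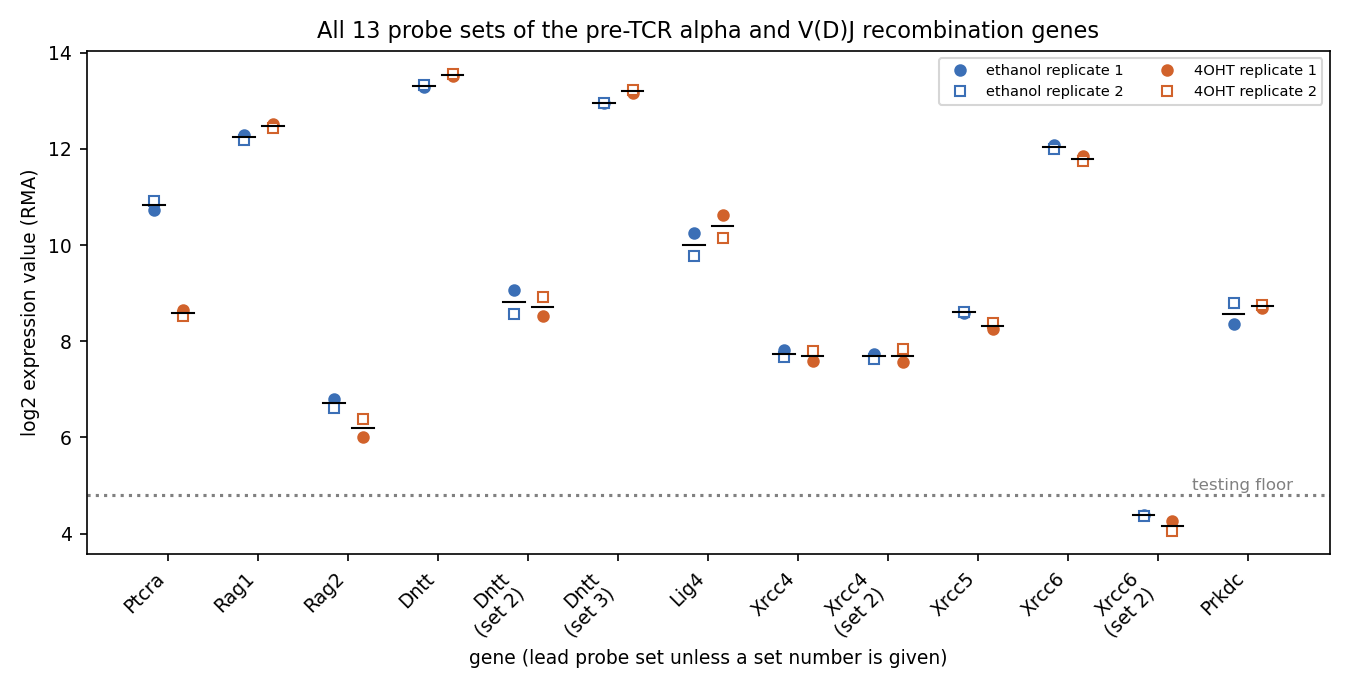
Log2 expression values (RMA) of the 13 probe sets on each array; blue marks ethanol and orange 4OHT, filled circles replicate 1, open squares replicate 2, and black bars group means. The Ptcra values fall from between 10.73 and 10.92 to between 8.53 and 8.66, while the group means of the other probe sets differ by at most 0.51.

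Ptcra was at 10.73 and 10.92 on the ethanol arrays and at 8.66 and 8.53 on the 4OHT arrays (log2 expression value, replicates 1 and 2). The 4OHT values lie close together and far below both ethanol values. Ptcra thus fell 4.71-fold, from a mean of 10.83 ± 0.13 to 8.59 ± 0.093 (SD, n = 2 each), a log2 change of -2.23 ± 0.11 (SE; 95% confidence interval -2.50 to -1.97; limma adjusted p = 0.00221). Only 8 of the 11581 tested genes had a larger fall, and 9 had a smaller p. The call held whichever array was left out, with changes between -2.33 and -2.14 and adjusted p-values between 0.0104 and 0.0354. The gene has 1 probe set on the array.

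The recombinase genes lie next to each other on chromosome 2 and pointed in opposite directions, neither passing the test. Rag1, whose product carries the catalytic site, was at 12.28 and 12.19 with ethanol and at 12.51 and 12.43 with 4OHT. Both 4OHT values are above both ethanol values, but by a small step: the log2 change was 0.24 ± 0.090 (95% interval 0.011 to 0.46, adjusted p = 0.179). Rag2, the partner subunit, was at 6.80 and 6.62 with ethanol and at 6.02 and 6.38 with 4OHT. Here both 4OHT values are the lower ones, yet the 4OHT arrays differ from each other by 0.37. The log2 change of Rag2 was -0.51 ± 0.15 (95% interval -0.88 to -0.14, adjusted p = 0.105). Its change was -0.69 without 4OHT replicate 2 and -0.33 without 4OHT replicate 1. The Rag2 intensities are low on this scale, whose testing floor is 4.81, so a fold can be understated.

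Dntt encodes terminal transferase, which adds untemplated bases to the joints. Its lead probe set, the one with the highest mean, was at 13.29 and 13.33 with ethanol and at 13.51 and 13.56 with 4OHT. The groups do not overlap and each is tight, and the log2 change was 0.22 ± 0.085 (95% interval 0.013 to 0.44, adjusted p = 0.176). The 2 other Dntt probe sets disagreed with each other. One, marked as prone to cross-hybridise, was at 12.96 on both ethanol arrays and at 13.17 and 13.21 with 4OHT, a change of 0.23. The other was at 9.07 and 8.56 with ethanol and at 8.52 and 8.92 with 4OHT, where the groups overlap and the change was -0.095. With a variance prior that follows intensity, the lead set passed as higher (adjusted p = 0.0254).

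**Figure D2:**
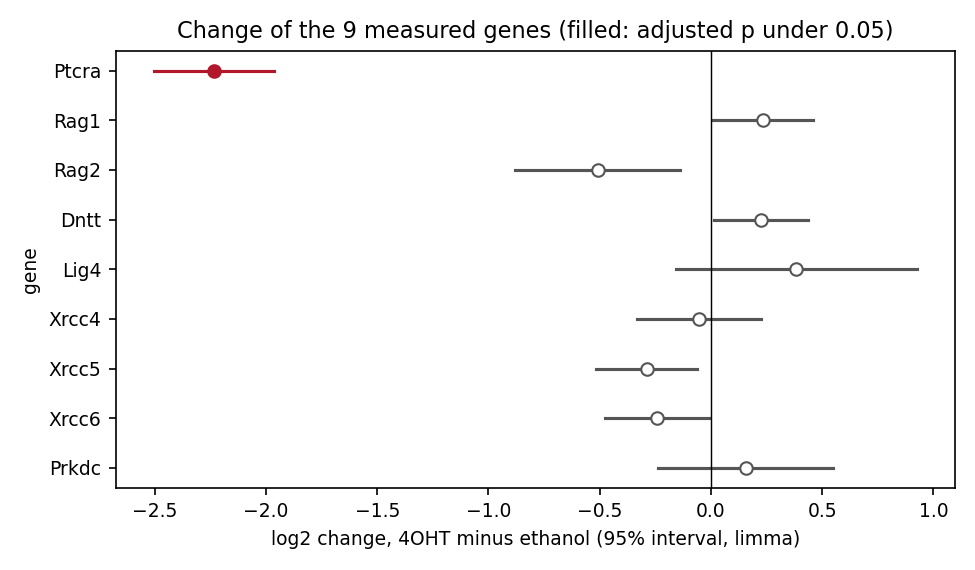
Log2 change (4OHT minus ethanol) of the lead probe set of each of the 9 genes, with limma's 95% interval, not adjusted for the number of genes. The interval of Ptcra, from -2.50 to -1.97, lies apart from those of the 8 other genes, which all stay between -0.88 and 0.93.

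The Ku genes were the most alike of the end-joining members, each a little lower with 4OHT. Xrcc5 (Ku80) was at 8.60 on both ethanol arrays and at 8.24 and 8.37 on the 4OHT arrays. Xrcc6 (Ku70) was at 12.08 and 11.99 with ethanol and at 11.85 and 11.74 with 4OHT. In both genes the groups do not overlap, and the test was not passed. The log2 change was -0.29 ± 0.091 for Xrcc5 (95% interval -0.52 to -0.062, adjusted p = 0.121) and -0.24 ± 0.093 for Xrcc6 (-0.47 to -0.0093, adjusted p = 0.182). A second Xrcc6 probe set, below the testing floor at 4.38 and 4.16 on average, gave -0.22.

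Lig4, the ligase that seals the joint, varied more between replicates than between treatments. It was at 10.24 and 9.78 with ethanol and at 10.63 and 10.16 with 4OHT. Replicate 1 lies above replicate 2 by 0.46 in the ethanol group and by 0.48 in the 4OHT group, so the groups overlap. The log2 change of Lig4 was 0.38 ± 0.22 (95% interval -0.16 to 0.92, adjusted p = 0.328), and it ran from 0.15 to 0.62 as each array was left out. Xrcc4, which holds the ligase at the break, was at 7.82 and 7.66 with ethanol and at 7.59 and 7.79 with 4OHT, with a change of -0.053 (95% interval -0.33 to 0.23, adjusted p = 0.806). Its second probe set, which has overlapping groups too, gave 0.014.

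Prkdc encodes DNA-PKcs, the kinase that activates Artemis. It had a level of 8.35 and 8.79 with ethanol against 8.69 and 8.76 with 4OHT. Ethanol replicate 1 is the low array, and the other 3 lie between 8.69 and 8.79. The log2 change was 0.16 ± 0.16 (95% interval -0.24 to 0.55, adjusted p = 0.58), and -0.064 without ethanol replicate 1.

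The 8 genes that did not pass are not shown to be unresponsive. Their intervals allow, at the outer ends, a fall to 0.54 of the ethanol level for Rag2 and a rise to 1.90 times it for Lig4, and all lie well short of the Ptcra fall. Among the 11581 tested genes the smallest absolute log2 change that was called was 0.396, and the median SE was 0.10. The share of tested genes with a smaller absolute change was 91.6% for Rag2, 85.0% for Lig4, 76.0% for Xrcc5 and between 19.7% and 69.3% for Xrcc6, Rag1, Dntt, Prkdc and Xrcc4, against 99.9% for Ptcra.

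**Figure D3:**
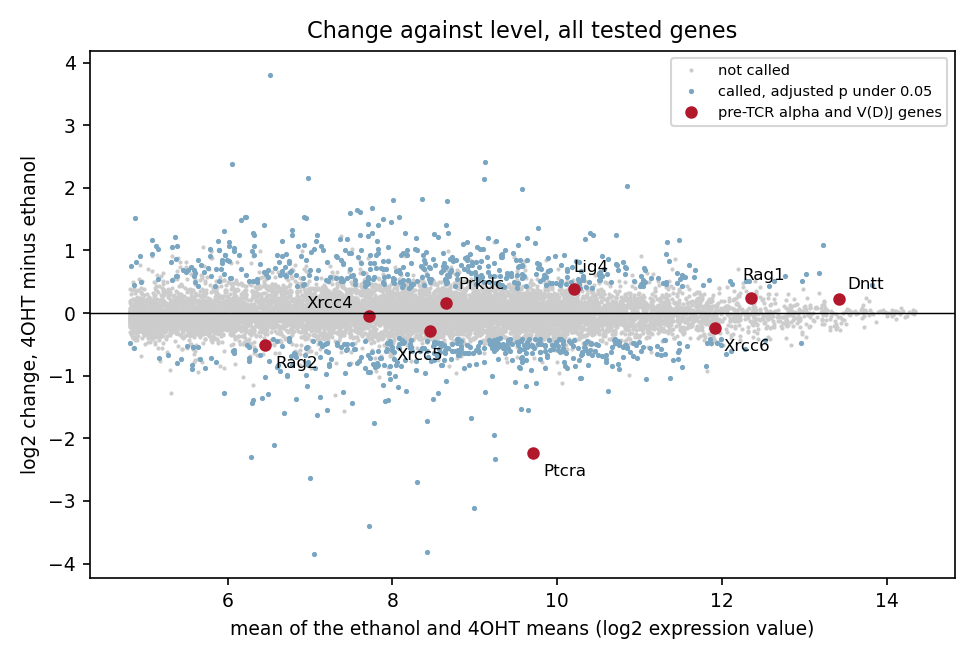
Log2 change (4OHT minus ethanol) against the mean level for the 11581 tested genes; grey points were not called, blue points were called at an adjusted p under 0.05, and red points are the 9 genes. Ptcra stands among the largest falls at -2.23, and the other 8 lie inside the grey band between -0.51 and 0.38.

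The array also carries probe sets named for the loci that the recombinase acts on, the variable segments of the receptor chains. Of 10 genes named, 7 could be tested. Of these, 3 passed as higher and none fell (42.9% called, where 7.47% of all tested genes were, 3.90% higher). The 3 are all alpha chain variable segments, and the 4 of the beta and gamma loci did not pass. One of the 3, Trav12n-1, entered the test only through its 4OHT arrays. The median change of the 7 was 0.029. Trav9d-3 was at 9.72 and 9.80 with ethanol and at 10.94 and 11.14 with 4OHT. Every 4OHT value of it is more than 1 log2 unit above every ethanol value, a 2.43-fold rise (1.28 ± 0.10, adjusted p = 0.00893). Trav12n-2 rose 1.80-fold, from 5.57 to 6.42 on average (adjusted p = 0.0275). Trav12n-1 was at 4.65 and 4.59 with ethanol, both under the testing floor of 4.81, and at 5.33 and 5.78 with 4OHT (adjusted p = 0.0325). The call of Trav9d-3 was lost without 4OHT replicate 1 (adjusted p = 0.0521), and those of the other 2 whichever array was left out.

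Several genes of these loci have more than 1 probe set. Of 10 alpha locus probe sets, 4 had both group means above the floor, and these had changes from 0.85 to 1.40. A further 2, 1 of Trav9d-3 and that of Trav12n-1, were under the floor with ethanol and above it only with 4OHT. In the fit over every probe set, which called 2.48% of all (1.52% higher and 0.953% lower), 7 of the 10 were higher and none lower, the 4 and these 2 among them, besides 1 below the floor in both groups (Trav6-3, from 3.56 to 4.38). Of 7 beta and gamma locus probe sets, none was called, and the 5 with both means above the floor had changes from -0.34 to 0.029. The brightest, named Trbv1, was at 12.91 and 12.84 with ethanol and at 12.95 and 12.79 with 4OHT, with overlapping groups. Trgv1 was at 9.69 and 9.67 with ethanol and at 9.71 and 9.70 with 4OHT. Several of these sets are marked as reading related transcripts, 5 of the alpha locus sets carry 1 gene name, and a name does not show which segment, or whether the constant part, is read. Their values are therefore not independent. The difference between the loci was not tested.

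**Figure D4:**
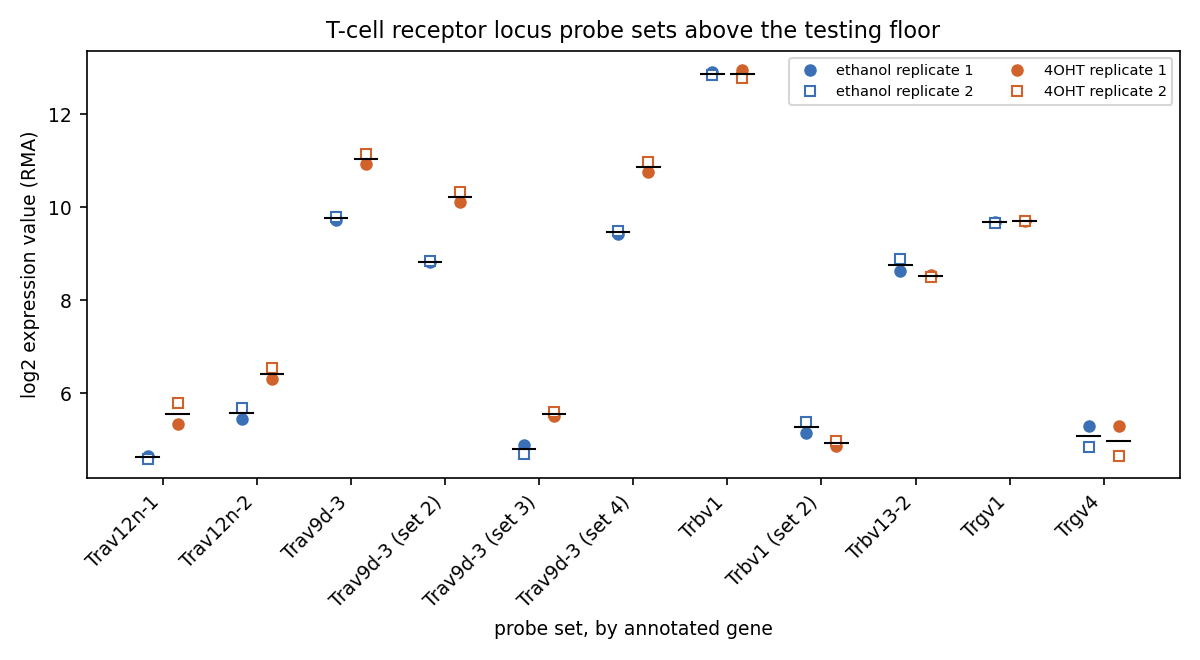
Log2 expression values (RMA) of the 11 T-cell receptor locus probe sets with a 4-array mean above the testing floor, on each array; blue marks ethanol, orange 4OHT, filled circles replicate 1, open squares replicate 2, and black bars group means. In the 6 alpha locus sets (names beginning Trav) both orange points lie above both blue points, 2 of the sets starting from an ethanol mean under the floor, and the beta and gamma sets show changes between -0.34 and 0.029.

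The 6 related lists place these values in their pathways. Over all tested genes the share called was 7.47%. In the receptor complex and proximal signalling list, 2 of 16 tested genes rose and 1 fell (18.8% called), with a median of 0.24. Cd3g, a CD3 chain that the pre-TCR and the mature receptor both need, fell 1.48-fold (adjusted p = 0.0356). Cd247, the zeta chain, rose 1.60-fold (adjusted p = 0.0347) and Ptprc, the phosphatase CD45, 1.51-fold (adjusted p = 0.0295). The 2 remaining CD3 chains, named after their values were seen, did not pass: Cd3d changed by -0.14 (adjusted p = 0.541) and Cd3e by -0.21 (adjusted p = 0.331) on the log2 scale.

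Of 25 tested accessory genes of end joining and V(D)J recombination, 1 fell and none rose (4.00% called), with a median of -0.093 and changes from -0.57 to 0.44. The falling gene was Ung, a uracil glycosylase of base excision repair and antibody diversification, from 9.68 and 9.63 to 9.11 and 9.05 (1.49-fold, adjusted p = 0.0266). It does not join ends in V(D)J recombination. In the RAG2 turnover and chromatin list, 1 of 16 rose (6.25% called), the S phase kinase gene Cdk2, which phosphorylates RAG2 for degradation (1.32-fold, adjusted p = 0.049). Both shares are near or below the 7.47% of all tested genes. Of 3 tested immunoglobulin and surrogate light chain genes, the heavy chain gene Ighm rose 1.49-fold (adjusted p = 0.0305), while Igll1 and Vpreb1, which form the B-cell counterpart of the Ptcra product, changed by -0.15 and -0.077 and did not pass.

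Of 30 tested factors reported to control Rag, Dntt or Ptcra, 3 rose and 4 fell (23.3% called), with a median of 0.16. Among the 4 with the smallest p, the receptor genes Notch3 and Notch1 fell 3.19-fold and 1.82-fold (adjusted p = 0.018 and 0.0259), Lef1, a TCF family factor, fell 1.66-fold (adjusted p = 0.0268), and Foxo3 rose (log2 change 0.59, adjusted p = 0.0267). Ikzf1, which encodes Ikaros, was at 10.05 and 10.01 with ethanol and at 10.53 and 10.46 with 4OHT (1.38-fold higher, adjusted p = 0.0361). These levels are far above the testing floor in a line that the design text calls Ikaros-deficient. That text does not say what the deficiency consists of, so whether this probe set reads an affected stretch is not known here. The other called factors were Id3, an inhibitor of E proteins (1.66-fold higher, adjusted p = 0.0469), and Ets2 (1.39-fold lower, adjusted p = 0.0478); these 3 were named after their values were seen. Tcf12 (HEB), Tcf3 (E2A), Myb and Rbpj, 4 regulators of Ptcra also picked after their values were seen, did not pass: Tcf12 changed by 0.20, Tcf3 by 0.021, Myb by -0.057 and Rbpj by -0.11 on the log2 scale, with adjusted p-values from 0.24 to 0.943.

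**Figure D5:**
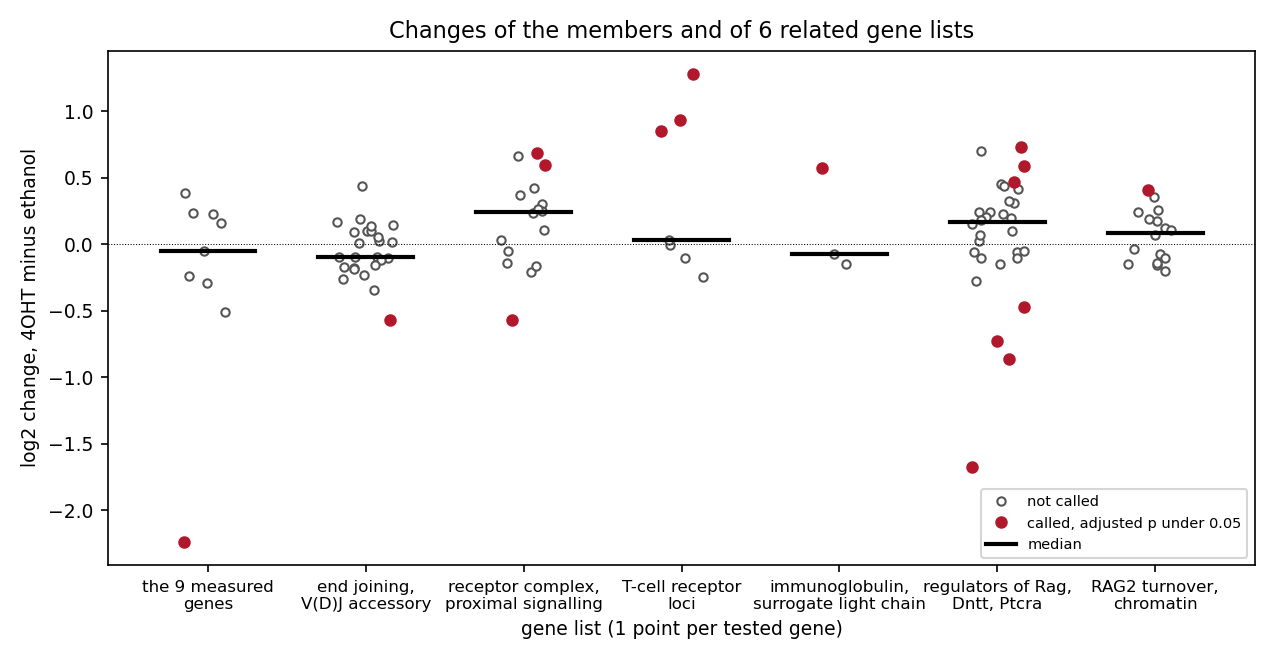
Log2 change (4OHT minus ethanol) of each tested gene in the members and in 6 related lists, 1 point per gene with a small sideways jitter; filled points were called at an adjusted p under 0.05 and black bars are medians. Ptcra, at -2.23, is the lowest point of all 7 columns, and Trav9d-3, at 1.28, the highest.

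Among 11043 tested non-member genes with an ordinary name, the 4 most like Ptcra over the 4 arrays were Scn4b, H2-Bl, Coro2a and Il2ra. Likeness was the Euclidean distance between log2 values centred on each gene's own mean, which came to 0.27, 0.35, 0.57 and 0.58. Scn4b, a sodium channel subunit gene, went from 10.49 and 10.33 with ethanol to 8.15 and 8.01 with 4OHT, a 5.02-fold fall. H2-Bl, an MHC class I gene, fell 3.84-fold, Coro2a, a coronin gene, 3.30-fold, and Il2ra, the interleukin-2 receptor alpha chain, 4.31-fold. No such gene lay within 0.25 of Ptcra, whereas 2798 lay within 0.25 of Rag1. The 4 nearest to Rag1 (Zbtb22, Scp2, Gtf2a2 and Ska2) had distances of 0.013 to 0.022 and did not pass the test themselves, and with so many near neighbours their likeness is a description of a small change only. Over 4 arrays such a ranking has little resolution.

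The genes on either side of the members in RefSeq's gene order were followed as well, up to 2 on each side. Of 19 tested neighbours, 4 were lower and none higher (21.1% called, where 7.47% of all tested genes were, 3.57% lower). Whether neighbours change together with the members was not tested. Beside Ptcra, 2310039H08Rik fell (log2 change -0.47, adjusted p = 0.0376), and Cnpy3, on its other side, changed by -0.27 without passing (adjusted p = 0.184). Neither of the next genes out passed. Rpl7l1, beyond 2310039H08Rik, changed by -0.41 (adjusted p = 0.0766) and Gnmt, beyond Cnpy3, by -0.059 (adjusted p = 0.803). Next to Rag2, Iftap fell from 7.43 to 6.94 on average (adjusted p = 0.0372), a step close to that of Rag2 itself, while Traf6, next to Rag1, changed by 0.044 (adjusted p = 0.866). The other falling neighbours were Pecr, near Xrcc5 (-0.66, adjusted p = 0.0306), and Pmm1, near Xrcc6 (-0.72, adjusted p = 0.0165).

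Most of these single-gene calls rest on all 4 arrays. In each of the 24 genes counted next, ethanol and 4OHT values did not overlap. Leaving out 1 array could therefore not reverse a direction. Scn4b, H2-Bl, Coro2a and Il2ra were also picked on these same 4 arrays, for their likeness to Ptcra. Of the 24 called genes of the lists, the neighbours and the genes most like Ptcra, all kept their direction when 1 array was left out, 3 (Scn4b, H2-Bl and Coro2a) kept their call in each of the 4 fits, and 16 kept it in none; such a fit has 1 residual degree of freedom. Those that kept it in none were Cd3g, Cd247, Ptprc, Ung, Cdk2, Ighm, Trav12n-1, Trav12n-2, Lef1, Foxo3, Ikzf1, Ets2 and the 4 neighbours. Notch1 and Id3 lost their calls in most of these fits. Notch3 lost its call without either 4OHT array, and Il2ra without 4OHT replicate 1.

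Across tested genes the arrays correlated at a Pearson r of 0.995 and 0.995 within groups and 0.983 to 0.987 between them. The T-cell identity on the label was borne by 9 of 11 T-cell markers above the testing floor, with Cd2 and Cd5 below it; Cd247 and Cd8a (1.78-fold, adjusted p = 0.0347) were called higher and Cd3g lower. Of 9 B-cell markers, 4 were above the floor, with ethanol means of 4.94 to 6.10, and Cd79a, Cd79b, Ebf1, Ms4a1 and Blnk were below it; none was called. Of the myeloid, NK and erythroid markers 2 of 7, 1 of 3 and 1 of 2 were above the floor and none was called. Of 7 stromal, epithelial and endothelial markers 3 were above it, among them Pdgfrb (8.65 with ethanol, not called) and Pecam1, which rose 1.90-fold, from 7.71 to 8.64 (adjusted p = 0.0165), while Col1a1, Col3a1 and Cdh5 were below it on every array and Krt8 was below it on average. The log2 of that list's summed level was 9.49 and 9.52 with ethanol and 9.57 and 9.84 with 4OHT. One measure of RNA quality moved with the groups: the 18S control differed between its 3′ and 5′ probe sets (3′ minus 5′, log2) by 0.051 and 0.32 with ethanol and 0.90 and 0.82 with 4OHT, while Actb gave 0.40 and 0.49 against 0.43 and 0.45. For the pyruvate carboxylase control this difference was 0.88 and 1.29 with ethanol and 0.93 and 1.49 with 4OHT. For the transferrin receptor control it was 1.33 and 1.97 with ethanol and 1.45 and 1.73 with 4OHT. Both were higher in replicate 2 of each group, while Gapdh stayed between -0.068 and 0.030. The part of these markers and of RNA quality in the changes above, and in the differences between replicates, was not tested. In bulk RNA, fewer cells making a transcript and less of it per cell cannot be told apart.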

How the data were processed

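RNA from 4 samples was measured on 1-colour Affymetrix arrays. The authors deposited log2 expression values per probe set, made with RMA per the submitters' processing notes; the values themselves (2.25 to 14.6) showed the log2 scale. No version of RMA is given in the sources used here. There is neither a detection call nor a depth, so the number of arrays limits the precision. Probe sets naming 1 gene in the platform annotation were used, and each gene was represented by its set with the highest mean. The test left out 6612 genes whose mean lay below the 40th percentile of these sets (4.81). The groups were tested with limma 3.58.1 (lmFit and eBayes, no block; R 4.3.3), with Benjamini-Hochberg adjustment over 11581 genes. On simulated data of 11581 genes, 200 of them changed, the fit recovered 11.2%, 64% and 87.8% of log2 changes of 0.5, 1 and 2. Of the calls made there, 2.94% were false on average. The deposited data gave 865 called genes, so recovery in them may differ.

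Members and lists were chosen with earlier results of these data known. Named were all members, up to 4 called genes per list (or the nearest to passing where none was called), called neighbours, and the 4 genes most like Ptcra and Rag1; others are marked. Replicate numbers are shared between groups, but no label says that they pair samples. The alternatives were other filters, scalings, variance priors and thresholds, all probe sets, their mean, a replicate block and each array left out. Dclre1c has no listed probe set and Prkdc no listed promoter.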

Additional observations from a re-analysis of the deposited data

How the results depend on the processing

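Of 143 alternative results for the 9 members' changes, 130 kept their direction and side of the threshold, 10 newly passed and 3 changed sign. The filters, variance priors, thresholds, replicate block and fit over every probe set could not alter the change itself, only the test. In these settings the direction was fixed in advance. Nor could leaving out 1 array reverse Ptcra, Rag1, Rag2, Dntt, Xrcc5 or Xrcc6, whose ethanol and 4OHT values do not overlap. The 143 results are thus not independent checks. Ptcra kept its call in all settings run. The sign changes were in genes that never passed: Xrcc4 (0.025 without ethanol replicate 1 and 0.046 without 4OHT replicate 1) and Prkdc (-0.064 without ethanol replicate 1). With arrays left out in turn, the range was -0.15 to 0.046 for Xrcc4 and -0.064 to 0.38 for Prkdc. At an unadjusted p under 0.05, Rag1 (0.24), Rag2 (-0.51), Dntt (0.22), Xrcc5 (-0.29) and Xrcc6 (-0.24) also passed, giving 2 higher and 4 lower members. An intensity trend added Dntt (0.22) as 1 higher member, and a robust prior with it Dntt (0.22) and Rag1 (0.24, adjusted p = 0.0496) as 2. Rag2 was not tested with a filter at the 60th percentile.

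The replicate number as a block called Rag2 (-0.51, adjusted p = 0.0275) and Lig4 (0.38, adjusted p = 0.0236), giving 1 higher and 2 lower members, but it called 18.4% of all genes (1104 higher, 9.53%, and 1031 lower, 8.90%). Same-numbered samples deviated together with a correlation of 0.34 across genes; with 2 numbers and no label of a shared origin, this is a hint from the data only. With the block the accessory list had 1 higher and 2 lower genes, the receptor complex list 5 higher, the regulators 7 higher and the RAG2 list 2 higher.

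The series had 452 genes higher and 413 lower. These were 679 and 666 with a trend and robust prior, 663 and 636 with the trend alone, 853 and 824 at an adjusted p under 0.1, 24 and 22 at 0.01, 1426 and 1532 at an unadjusted p under 0.05. Leaving out 1 array gave 9 to 125 higher and 12 to 66 lower genes, and for the lists 0 to 0 lower accessory genes, 0 to 0 higher and 0 to 0 lower receptor complex genes, 0 to 1 higher T-cell receptor locus genes, 0 to 0 higher immunoglobulin genes, 0 to 2 higher and 0 to 2 lower regulators and 0 to 0 higher RAG2 list genes. Without the filter on dim genes the RAG2 list had 0. Fewer arrays leave 1 residual degree of freedom.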
